A study of Mus musculus with 6 samples.

Results

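RNA of DN3 thymocytes labelled as Tcf1-deficient was compared with RNA of control DN3 thymocytes, using the 2 libraries labelled Tcf1-deficient and the 2 labelled control, 4 of the 6 libraries in the series. All cells came from mouse thymus and had been sorted as lineage-negative cells without CD4 and CD8, with low CD44 and high CD25. Control libraries are labelled wild type. The Tcf1-deficient libraries carry the genotype Lck-cre+ Tcf1 fl/fl, in which Cre recombinase made under the Lck promoter removes a floxed part of the gene in T-lineage cells, and they are called mutant 1 and mutant 2 here after their replicate numbers. Cre driven by Lck acts once cells are in the T lineage, so the precursors that seed the thymus start with an intact gene. The labels name neither Cre nor a floxed allele for the controls, so effects of Cre and of the deletion cannot be told apart. Age, strain and pooling of animals are not given in the labels. The other 2 libraries, from p45-/- mice that lack only the long Tcf1 isoforms, entered the fit to help estimate the spread and serve as a second point of comparison.

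Tcf1 is an HMG-box transcription factor encoded by Tcf7. Notch signals switch it on as precursors enter the thymus, and with its relative Lef1 it binds short DNA motifs, activates genes with beta-catenin through its long isoforms, and represses others together with TLE corepressors. DN3 cells rearrange the T cell receptor beta gene with the Rag recombinase, test the product in a pre-TCR with the chain made from Ptcra, and divide once they pass. Tcf1 is known for its roles in early T-lineage commitment, in survival and passage through this checkpoint, and in holding back innate and effector programmes.

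The deposited counts covered 24015 gene symbols, with library totals from 19640524 to 28107031. Levels are given in CPM, the count of a gene divided by the TMM-scaled size of its library. A count of 3 in a library corresponds to 0.107 to 0.153 CPM when the library total is taken without TMM scaling. The filter on low counts left 12939 genes for testing. Whether replicate libraries stem from different mice is not stated in the labels, and p-values therefore reflect only how far these libraries differ within a group, a spread that can be technical. The 15 DN3 markers were detected in all libraries, and their summed level was 12420 and 11220 CPM in the controls, 8622 CPM in mutant 1 and 12200 CPM in mutant 2. Ribosomal RNA counted under Rn45s made up 0.482% and 1.24% of the control libraries and 2.52% and 1.22% of mutants 1 and 2. Summed B cell markers lay between 51.1 and 65.3 CPM in these 4 libraries, and the B cell factor gene Pax5 was at 0 in both mutants and in control replicate 2. Summed myeloid markers were 57.2 and 51.6 CPM in the controls, 130 CPM in mutant 1 and 46.0 CPM in mutant 2, with 1 and 3 of 17 markers at 0 in the controls and 4 and 7 in mutants 1 and 2. Among these Elane was at 0 in both mutants and in control replicate 2, and S100a8 and S100a9 were at 0 in both mutants and in neither control. Haemoglobin genes were listed at 0 in all 6 libraries.

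Tcf7 stood at 2088 and 1810 CPM in the controls and at 979 and 976 CPM in mutants 1 and 2. Both mutants therefore lay below both controls, at nearly the same level as each other, while the p45-deficient libraries held 2340 and 2414 CPM. The mean was 1949 ± 196 CPM in control and 978 ± 2.3 CPM in Tcf1-deficient cells (SD, n = 2 each), a log2 fold change of −0.995 (SE 0.11). edgeR's quasi-likelihood test with Benjamini-Hochberg adjustment gave it an adjusted p of 0.0762, which did not pass the 0.05 threshold. Over the alternatives this adjusted p ran from 4.61e-12 by DESeq2 to 1 without control replicate 1, and it passed edgeR's test without mutant 1 (0.0404), without mutant 2 (0.00359) and with no filter on low counts (0.00249). Counts are per gene, and reads from exons outside the removed part are counted too, so the remaining Tcf7 reads do not measure remaining protein.

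edgeR's test called 0 of the 12939 genes (0%) between Tcf1-deficient and control cells at an adjusted p below 0.05. At an unadjusted p below 0.05 there were 1024 genes (7.91%), 557 higher (4.30%) and 467 lower (3.61%). DESeq2 called 145 of the 11935 genes it adjusted (1.21%), 79 higher and 66 lower. In 144 of these both mutants lay beyond both controls, which a call on the same libraries favours. Without a filter edgeR called 33 genes, 20 higher and 13 lower, of which 32 were also called by DESeq2. Leaving out mutant 1 gave 16 calls, 13 higher and 3 lower, and leaving out mutant 2 gave 894, 669 higher and 225 lower. Leaving out any one of the other 4 libraries gave 0. In data simulated for 12716 genes with the fitted spread, changes were given only to genes with a mean of at least 2 CPM. There edgeR's test found 8% of the genes changed 1.5-fold, 48% of those changed 2-fold and 86% of those changed 4-fold, with 13 false calls beside these. All groups had the same spread per gene in that simulation. The mutants differed more (SD of the log2 difference 0.787, beside 0.51 between the controls), so these shares do not measure the recovery in this contrast. Differences from control are therefore given as levels in each library, with the overlap between the 4 libraries, and not as changes.

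Both mutants lay above both controls in 2123 genes (16.4%) and below both in 2327 genes (18.0%). With library totals in place of TMM the split was 1668 above and 2840 below, so the balance of the directions rests on the scaling, although the median over all genes (log2 fold change) shifted only from 0.007 to −0.041. If the labels carried no information, the 4 libraries would separate fully in a share of 0.333 of genes, both directions together. The 4450 of 12939 genes here are near that share. Lying beyond both controls therefore does not by itself set a gene apart. The nearest mutant and control libraries were at least 2-fold apart in 65 genes above (0.502%) and 90 genes below (0.696%). Taking out a library widens these counts by construction, to between 406 without control replicate 1 and 1494 without mutant 2 for both directions together.

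The gene that stood furthest above the controls was En2, a homeobox gene known from the midbrain and hindbrain. It had 0 counts in both controls and in both p45-deficient libraries, and it stood at 17.9 and 35.3 CPM in mutants 1 and 2. Its 1256 counts over the mutants make it at least 407-fold higher against a floor of 3 counts over the control group. Which DNA these reads come from was not tested. Nnt, which encodes a mitochondrial transhydrogenase that makes NADPH, was at 152 and 153 CPM in the controls, 64.5 and 72.2 CPM in mutants 1 and 2, and 159 and 156 CPM in the p45-deficient libraries (log2 fold change −1.16, SE 0.11). Agfg1, a gene of nuclear export and vesicle traffic, stood at 71.4 and 80.5 CPM in the controls, 185 and 251 CPM in the mutants and 692 and 580 CPM in the p45-deficient libraries. Tcf7, En2, Nnt and Agfg1 shared the smallest adjusted p of edgeR's test, 0.0762, with Rap1gap2, Mllt4, Acot5 and Myzap, and Nnt and Agfg1 are named here because of that value, after it was seen. For Nnt the labels name no strain, so strain and genotype cannot be told apart.

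The 12 genes with the largest gap above the controls, En2 among them, are given in order of their known roles. Adam19, a membrane metalloprotease gene, stood at 3.58 and 2.21 CPM in the controls and at 56.2 and 19.9 CPM in mutants 1 and 2. Itgae, the integrin chain CD103 that binds E-cadherin, stood at 13.5 CPM in each control and 62.0 and 35.7 CPM in the mutants. Mllt4, which encodes the junction protein afadin, was at 32.7 and 32.8 CPM against 91.8 and 131 CPM. In each of these genes the lower mutant stood at least 2.63-fold above the higher control. Rap1gap2, which switches off the small GTPase Rap1, stood at 9.57 and 10.2 CPM in the controls and 26.8 and 35.1 CPM in the mutants. Ptpn13, a large tyrosine phosphatase gene, stood at 6.48 and 7.33 CPM against 20.5 and 19.0 CPM, and Prkce, a protein kinase C gene, at 2.95 and 2.94 CPM against 10.6 and 7.95 CPM. Maf, a bZIP factor of gamma-delta and effector T cells, stood at 6.91 and 5.46 CPM in the controls and at 51.2 and 20 CPM in mutants 1 and 2. The mutants differed from each other on Maf and Adam19 by more than 2-fold, with mutant 1 the higher, and in both genes mutant 2 alone still stood clear of the controls. The aldo-keto reductase gene Akr1c12 was at 7.25 and 7.70 CPM, Mcoln3, an ion channel of endosomes, at 9.58 and 9.36 CPM, Myl4, a myosin light chain, at 10.02 and 8.66 CPM, and Bpifc at 11.0 and 21.0 CPM in mutants 1 and 2, each at 1.02 to 4.35 CPM in the controls. DESeq2 called 10 of these 12 genes, all but En2 and Bpifc. The genes were picked by the gap between the same 4 libraries, so these calls are no separate support.

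The 12 genes with the largest gap below the controls had their nearest libraries 2.47-fold to 6.45-fold apart. Hoxa7, a homeobox gene of blood stem and progenitor cells, stood at 9.62 and 10.6 CPM in the controls and at 1.19 and 1.46 CPM in mutants 1 and 2 (log2 fold change −2.93, SE 0.39). Acot5, an acyl-CoA thioesterase gene of peroxisomes, was at 9.23 and 9.05 CPM against 1.10 and 1.33 CPM. In both genes the mutants were close to each other and at least 6.30-fold below the lower control. Myzap, a gene of cell junctions, was at 37.7 and 31.6 CPM in the controls, 11.0 and 9.86 CPM in the mutants and 34.1 and 40.8 CPM in the p45-deficient libraries. Lifr, the receptor for leukaemia inhibitory factor, stood at 11.9 and 10.6 CPM against 2.86 and 4.2 CPM. Lrp1, a large endocytic receptor gene, had controls that differed from each other, at 188 and 95.1 CPM, and mutants at 24.9 and 29.5 CPM. Nfam1, an ITAM-bearing receptor gene, Dock1, an activator of Rac, Fndc1, the mTORC2 component gene Prr5, the alkaline phosphatase gene Alpl and the Rab11 effector gene Rab11fip5 were also among the 12, with the nearest libraries 2.47-fold to 4.55-fold apart. DESeq2 called 10 of the 12, all but Dock1 and Lrp1. Here too the genes were picked on the same libraries, so the calls are no separate support.

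**Figure D1:**
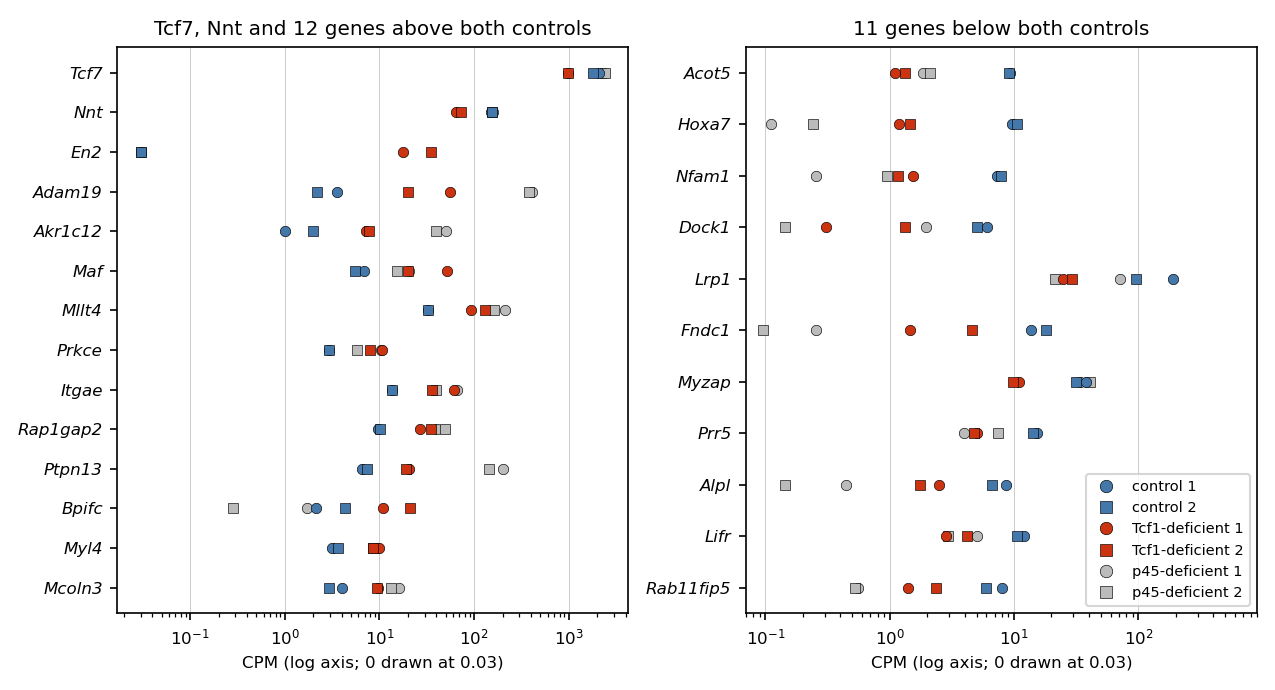
Level in each library (CPM, log axis, points at 0 drawn at 0.03) of Tcf7, Nnt, the 12 genes with the largest gap above and 11 of the 12 with the largest gap below both controls; circles are replicate 1 and squares replicate 2. The red Tcf1-deficient points lie to the right of the blue controls in the 12 genes above and to their left in Tcf7, Nnt and the 11 genes below, and En2 has counts in the Tcf1-deficient libraries only.

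The DNA upstream of these 24 genes was read for the motif that TCF and LEF proteins bind, as the words CTTTGAT and CTTTGTT on both strands, in the 250 bases before each start in RefSeq's annotation of GRCm38.p6. The words differ in a single base, so they do not overlap at a site. Of the 24 genes, 18 had an entry, with 29 windows in all, and 2 windows (6.90%) held a match, beside 2648 of 32851 windows (8.06%) over all genes. The share near these genes was thus no higher than the share in general. Both matches belong to genes that stood above the controls, and they are shown with the matched word in capitals. Mcoln3 is at chr3:146121541-146121790 on the plus strand. Rap1gap2 has several starts, and the one with a match is at chr11:74590187-74590436 on the minus strand. A match is a word in the sequence and not a measured binding site.
Mcoln3: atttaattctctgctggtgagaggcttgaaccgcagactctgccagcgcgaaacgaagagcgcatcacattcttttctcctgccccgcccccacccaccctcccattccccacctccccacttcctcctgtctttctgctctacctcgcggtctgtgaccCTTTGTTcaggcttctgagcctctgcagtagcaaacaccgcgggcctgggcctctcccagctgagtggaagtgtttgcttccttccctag
Rap1gap2: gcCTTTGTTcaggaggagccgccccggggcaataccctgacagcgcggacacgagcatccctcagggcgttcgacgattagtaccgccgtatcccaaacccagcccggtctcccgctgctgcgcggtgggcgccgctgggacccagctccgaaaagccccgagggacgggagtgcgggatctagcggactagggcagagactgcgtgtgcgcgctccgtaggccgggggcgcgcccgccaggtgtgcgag

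The mutants differed from each other more than the libraries of the other groups did. The log2 difference between mutants 1 and 2 had an SD of 0.787 over genes, beside 0.51 between the controls and 0.49 between the p45-deficient libraries, and 1565 genes (12.1%) were at least 2-fold apart, beside 713 (5.51%) and 760 (5.87%). Mutant 1 was the higher in 1144 of the 1565. Mutant 1 stood at least 2-fold above both controls in 777 genes (6.01%) and below both in 401 (3.10%), and mutant 2 in 132 (1.02%) and 297 (2.30%). Of the genes above, 712 were so in mutant 1 alone, 67 in mutant 2 alone and 65 in both.

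Genes of mature T cells and of T cells in motion set mutant 1 apart. Although the cells were sorted without CD4, Cd4 stood at 372 CPM in mutant 1, 46.1 CPM in mutant 2 and 63.1 and 86.5 CPM in the controls. Foxp3, the factor that defines regulatory T cells, was at 34.3 CPM in mutant 1 and between 1.55 and 2.25 CPM in mutant 2 and the controls. S1pr1, the receptor with which mature thymocytes leave the thymus, stood at 94.7 CPM against 7.28 CPM in mutant 2 and 3.48 and 8.28 CPM in the controls. Ccr7, a receptor that draws T cells to lymph nodes, was at 123 CPM against 12.4 CPM in mutant 2 and 8.94 and 20.9 CPM in the controls, and the costimulatory receptor gene Icos at 79.6 CPM against 8.61, 5.46 and 12.2 CPM. Cd8a, by contrast, was at 56.0 CPM in mutant 1, between the controls at 75.8 and 37.8 CPM, and at 16.1 CPM in mutant 2. Of 29 tested double-positive and mature T cell genes, 16 were at least 2-fold above both controls in mutant 1 and 0 in mutant 2, where 3 were at least 2-fold below both. The median difference from the control mean was 1.86 in mutant 1 and 0.10 in mutant 2 on the log2 scale, and the controls themselves lay 0.60 apart. Summed over the list, the level was 1102 and 1615 CPM in the controls, 3223 CPM in mutant 1 and 1692 CPM in mutant 2. In bulk RNA more cells of a type and more RNA per cell cannot be told apart, and what part other cells have in the levels of mutant 1 was not tested.

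DN3 genes lay low in mutant 1. Rag1 and Rag2, the recombinase genes, stood at 1255 and 951 CPM and at 78.3 and 61.6 CPM in the controls, at 458 and 20.7 CPM in mutant 1, and at 801 and 59.0 CPM in mutant 2. Dntt, which adds bases at the joints, was at 1718 and 1723 CPM in the controls, 1066 CPM in mutant 1 and 1542 CPM in mutant 2. Ptcra stood at 186 and 180 CPM in the controls, 97.3 CPM in mutant 1 and 153 CPM in mutant 2. All 4 genes were thus below both controls in both mutants, further in mutant 1. Il2ra, which encodes the CD25 used in the sort, went the other way in mutant 2 alone, at 1991 CPM, with 923 CPM in mutant 1 and 969 and 1197 CPM in the controls. Dtx1, a Notch-induced ubiquitin ligase gene, stood above both controls in both mutants, at 271 and 327 CPM against 147 and 140 CPM (log2 fold change 1.06, SE 0.14), and DESeq2 called it higher. Of the 15 DN3 markers, 7 lay below both controls in both mutants and 2 above, beside 18.0% below and 16.4% above over all genes. The counts of markers were the same under all 4 scalings, and edgeR's test called 0 of the 15.

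**Figure D2:**
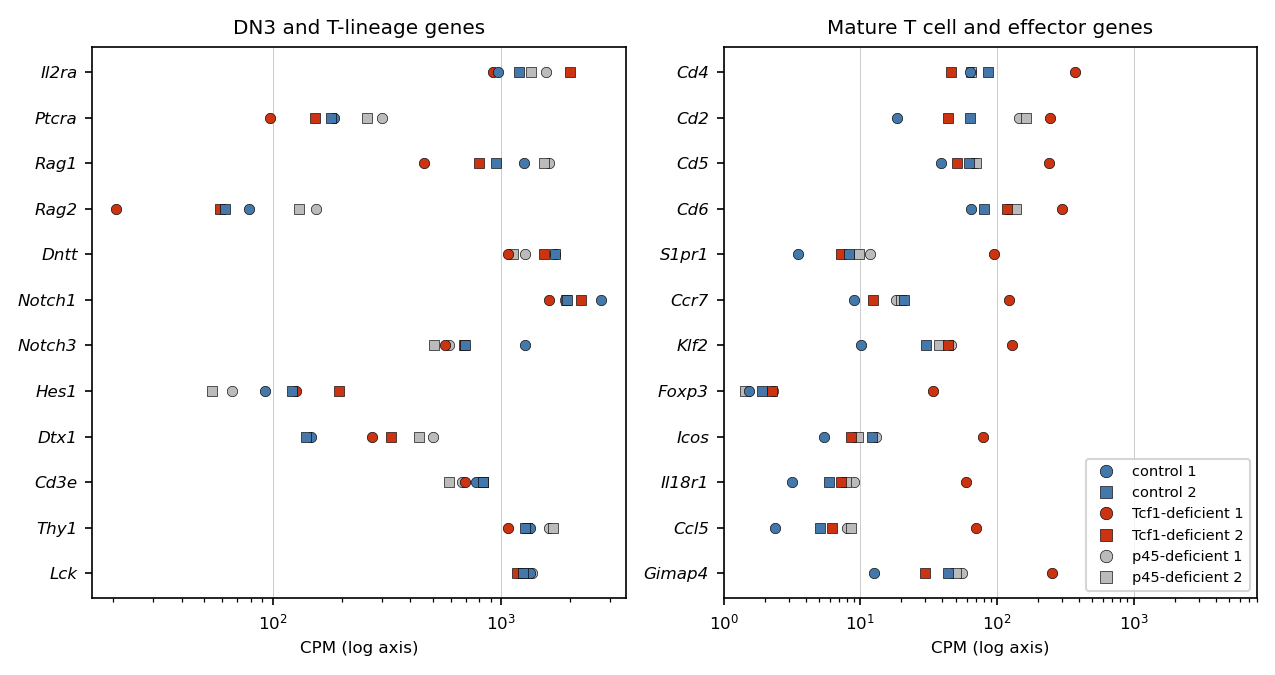
Level in each library (CPM, log axis) of 12 DN3 and T-lineage genes (left) and 12 mature T cell and effector genes (right); circles are replicate 1 and squares replicate 2. In the right panel mutant 1 stands alone at high levels, for example 372 CPM of Cd4, while mutant 2 lies with or near the controls; in the left panel mutant 1 has the lowest Rag1, Rag2 and Ptcra.

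The 10 genes that differed most toward mutant 1, among genes with controls less than 2-fold apart, included Il1r2, Csf1, Ncmap, Cxcr5, Fgl2, Amigo2, Nt5e, Igfbp4 and Ctss. Ctss, a protease of antigen-presenting cells, stood at 66.6 CPM in mutant 1, 2.79 CPM in mutant 2 and 4.54 and 6.53 CPM in the controls. Igfbp4 stood at 120 CPM in mutant 1, 5.04 CPM in mutant 2 and 12.7 and 19.1 CPM in the controls, and the ectonucleotidase gene Nt5e at 25.5, 0.957, 0.822 and 1.45 CPM. Il1r2 and Csf1 were listed at 0 in mutant 2, and the others were at least 23.7-fold apart between the mutants. Toward mutant 2 the 10 genes with the largest difference, among them Cyp2j9, Papss2 and Acy3, were 2.98-fold to 3.35-fold apart. The difference between the mutants was therefore one-sided in size. Ctss alone made up much of the summed myeloid markers in mutant 1.

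**Figure D3:**
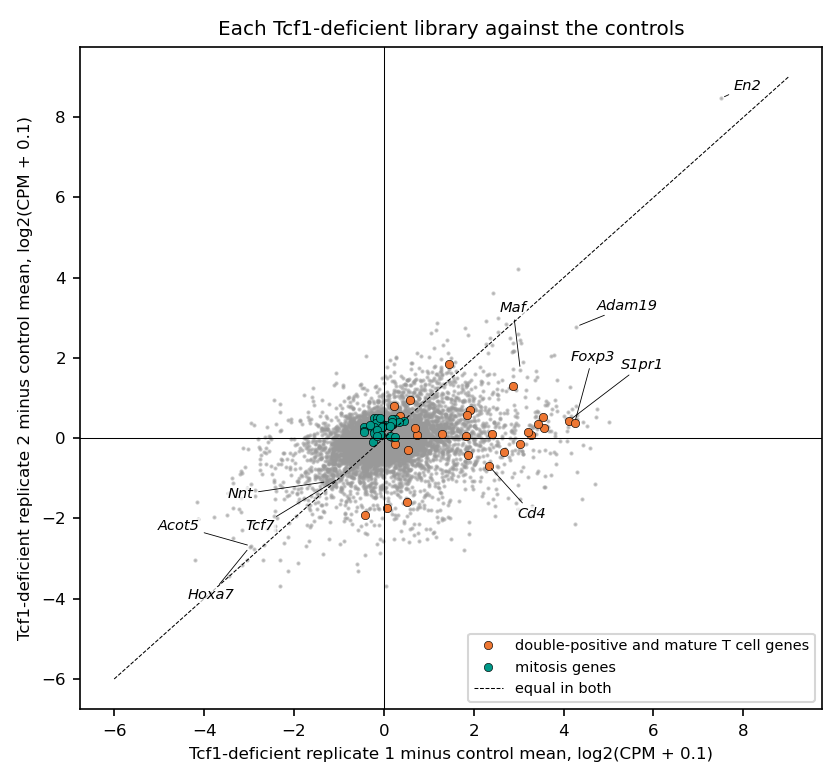
Difference of mutant 1 (horizontal) and mutant 2 (vertical) from the control mean, in log2(CPM + 0.1), for the 12939 tested genes; orange points are double-positive and mature T cell genes, green points mitosis genes, and the dashed line marks equal differences. Many orange points stretch to the right along the horizontal axis, far from the dashed line, the green points stay near the origin, and En2, Adam19, Tcf7, Nnt, Acot5 and Hoxa7 lie near the dashed line or on the same side of 0 in both mutants.

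The next groups are gene lists described by counts, to be read against the shares over all genes, 16.4% above and 18.0% below both controls. edgeR's test called 0 members of any list. Of the 739 tested list members DESeq2 called 21, 17 higher and 4 lower, beside 145 of 11935 genes (1.21%) in all. Without a filter edgeR called 4 list members, beside 33 of 17456 genes in all. Unless stated, the counts of a list changed by at most 3 genes under other scalings.

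Among 12 tested HMG-box genes, 4 lay above and 2 below both controls. Lef1, the closest relative of Tcf7, stood at 460 and 428 CPM in the controls, 612 and 595 CPM in the mutants and 969 and 1006 CPM in the p45-deficient libraries (log2 fold change against control 0.44, SE 0.10; adjusted p = 0.419, edgeR). Over the alternatives the adjusted p of Lef1 ran from 0.0102 by DESeq2 to 1 without control replicate 1, with 0.0489 by edgeR without mutant 2. Sox13, a gene of gamma-delta precursors, stood at 77.1 and 66.0 CPM against 106 and 112 CPM, and Tox at 65.7 and 110 CPM against 167 and 142 CPM. Sox12, at 37.9 and 20.8 CPM in the controls, was at 8.57 and 11.9 CPM in the mutants. The relatives of Tcf7 were thus on both sides of the controls.

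Beta-catenin itself, Ctnnb1, lay slightly below the controls, at 415 and 414 CPM against 370 and 386 CPM. Of its 17 tested partners and corepressors, 3 lay above and 3 below both controls. Tle4, a Groucho corepressor gene, stood at 31.9 and 35.9 CPM in the controls and 52.3 and 55.8 CPM in the mutants, and DESeq2 called it. Of 12 Wnt target genes 1 lay above and 6 below, and the 1 above was Lef1. No Wnt target gene had a gap of at least 2-fold on either side. In mutant 2 taken by itself, 1 stood at least 2-fold below both controls and 0 above, beside 2.30% and 1.02% over all genes. Among the lower ones besides Tcf7, Myc stood at 401 and 290 CPM in the controls and 231 and 278 CPM in the mutants. Znrf3 stood at 48.0 and 50.7 CPM against 42.7 and 43.1 CPM. Axin2, the standard readout of this pathway, was at 15.9 and 16.5 CPM in the controls, 22 CPM in mutant 1 and 9.78 CPM in mutant 2, one on each side.

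Notch receptors and targets did not share a direction, with 5 of 22 above and 7 below both controls. Hes1, a direct Notch target, stood at 92.6 and 121 CPM in the controls and 126 and 195 CPM in the mutants. Notch3 was at 1273 and 695 CPM in controls that differed from each other, and at 569 and 687 CPM in the mutants. Notch1 was at 2740 and 1936 CPM against 1610 and 2221 CPM, an overlap. With Dtx1 above and Ptcra below, the known targets stood on both sides.

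Of 26 T-lineage transcription factor genes, 11 lay above both controls and 2 below, and under library totals 9 lay above. Gata3 stood at 152 and 147 CPM in the controls and 179 and 181 CPM in the mutants, Ikzf1 at 553 and 513 CPM against 689 and 610 CPM, and Ikzf2, which encodes Helios, at 155 and 167 CPM against 208 and 236 CPM. Bcl11b, the factor that seals T-lineage commitment, was at 1197 and 873 CPM in the controls and 934 and 872 CPM in the mutants. Of the 26, 6 stood at least 2-fold above both controls in mutant 1 and 0 in mutant 2, where 1 stood at least 2-fold below. Zbtb7b, the CD4-lineage factor of later thymocytes, stood at 91.7 CPM in mutant 1, 14.4 CPM in mutant 2 and 10.4 and 23.3 CPM in the controls, with the mature T cell genes. Of 28 CD3, pre-TCR and TCR-proximal genes, 6 lay above and 4 below. Cd6, a regulator of TCR signals, stood at 64.5 and 80.7 CPM in the controls and 302 and 118 CPM in mutants 1 and 2, while Cd5 was high in mutant 1 alone, at 241 CPM against 51.4 CPM in mutant 2 and 39.1 and 62.1 CPM in the controls.

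Among 22 regulators of early precursors, 8 lay below both controls and 5 above, and 6 of those below had a gap of at least 2-fold, beside 0.696% over all genes. Gata2, a stem cell factor gene, was the 1 member with such a gap above, beside 0.502% over all genes, at 0 and 0 CPM in the controls and 0.264 and 0.499 CPM in the mutants. The Hoxa genes were part of this: besides Hoxa7, Hoxa5 stood at 4.06 and 4.05 CPM in the controls and at 0.132 and 1.29 CPM in the mutants. Mef2c, a factor gene of lymphoid and myeloid precursors, was at 4.88 and 4.35 CPM against 0.967 and 0.749 CPM, and Bcl11a at 20.3 and 16.0 CPM against 4.75 and 8.57 CPM. Most were low in the controls already. Kit, the receptor for stem cell factor, did not follow them, at 53.4 and 54.8 CPM in the controls and 38.6 and 54.4 CPM in the mutants, and Lyl1 and Mycn were not below control. Ly6a, the antigen Sca-1 that activated T cells also carry, stood at 92.0 CPM in mutant 1, 9.78 CPM in mutant 2 and 8.17 and 9.96 CPM in the controls.

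Gamma-delta T cell genes lay on the high side, with 7 of 10 tested members above both controls in both mutants and 0 below, under all 4 scalings. In mutant 2 taken by itself, 1 member stood at least 2-fold below both controls and 2 above, beside 2.30% and 1.02% over all genes. The median difference from the control mean was 1.07 and 0.60 in mutants 1 and 2, and 1.19 and 1.21 in the p45-deficient libraries. Etv5, an ETS factor gene induced by strong TCR signals, stood at 28.2 and 23.4 CPM in the controls and 62.2 and 81.7 CPM in the mutants (log2 fold change 1.48, SE 0.29). The scavenger receptor gene Cd163l1 was at 68.4 and 53 CPM against 110 and 114 CPM, and its relative 5830411N06Rik at 170 and 198 CPM against 248 and 268 CPM. Sox13 and Maf, given above, belong to the same list. DESeq2 called 4 of the members, Sox13, Etv5, Cd163l1 and Maf. In ERK pathway and feedback genes 13 of 23 lay above and 0 below, or 10 above and 1 below under library totals. Dusp4, a phosphatase gene induced by ERK, stood at 24.2 and 16.3 CPM against 52.2 and 28.6 CPM. Egr1 stood at 147 and 184 CPM in the mutants, but its controls were at 29.4 and 94.1 CPM.

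Genes of cytotoxic granules and of NK or innate lymphoid cells had 12 of 23 members above and 2 below both controls. Gzma, a granule protease gene, stood at 123 and 136 CPM in the controls and 215 and 306 CPM in mutants 1 and 2 (log2 fold change 1.01, SE 0.17), and Nkg7 at 24 and 38.5 CPM against 65.3 and 54.8 CPM. These were the 2 members that DESeq2 called. Much of the list was high in mutant 1 alone: Gzmb stood at 73.5 CPM there, 4.41 CPM in mutant 2 and 2.13 and 3.24 CPM in the controls, and the chemokine gene Ccl5 at 69.9 CPM, 6.20 CPM, and 2.37 and 5.12 CPM. The interleukin 18 receptor gene Il18r1 was at 59.3 CPM in mutant 1, 7.28 CPM in mutant 2, and 3.19 and 5.92 CPM in the controls. The NK receptor genes Ncr1 and Klra1 were at 0 in both mutants, Klra1 also in both controls and Ncr1 in control replicate 2. Of the 30 genes on the list 1 and 4 were at 0 in the controls and 3 and 5 in mutants 1 and 2. Summed over the list the level was 457 and 508 CPM in the controls, 977 CPM in mutant 1 and 701 CPM in mutant 2. Members at least 2-fold above both controls numbered 12 in mutant 1 and 1 in mutant 2.

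Receptors for cytokines, chemokines and adhesion also stood higher in mutant 1 than in mutant 2. Over all genes 6.01% and 1.02% were at least 2-fold above both controls in mutants 1 and 2. The median difference of all genes from the control mean was −0.003 and −0.001. Of 26 chemokine receptor, integrin and trafficking genes 14 were at least 2-fold above both controls in mutant 1 and 1 in mutant 2, and of 41 cytokine receptor and JAK-STAT genes 11 and 0. Itgb7, which pairs with the CD103 chain, stood at 230 CPM in mutant 1, 23.6 CPM in mutant 2 and 16.3 and 29.7 CPM in the controls. Itgae was above both controls in both mutants, and Itgav, at 15.7 and 19.5 CPM against 42.7 and 27.0 CPM, was the other member that DESeq2 called. Il7r, the survival receptor of early thymocytes, was at 95.9 and 93.7 CPM in the controls, 93.6 CPM in mutant 1 and 69.9 CPM in mutant 2.

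Interferon-stimulated genes were high in mutant 1, where 26 of 39 stood at least 2-fold above both controls, and 0 did in mutant 2. Irf7, a factor gene that amplifies interferon responses, stood at 73.3 CPM in mutant 1, 15.6 CPM in mutant 2 and 15.1 and 16.8 CPM in the controls. Slfn5, a Schlafen gene of resting T cells, was at 174 CPM in mutant 1, 21.7 CPM in mutant 2 and 12.3 and 25.1 CPM in the controls. The median difference from the control mean was 1.51 in mutant 1 and 0.15 in mutant 2. Ifit2 and Usp18 stood above both controls in both mutants, at 46.2 and 24.8 CPM against 17.8 and 14.8 CPM, and at 33.9 and 14.8 CPM against 5.95 and 8.97 CPM, and DESeq2 called these 2.

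The controls stood far apart on immediate-early genes, which respond quickly when a cell is stimulated. Fos stood at 26.4 CPM in control replicate 1 and 541 CPM in control replicate 2, with 296 and 594 CPM in mutants 1 and 2, and Jun at 138 and 618 CPM with 438 and 592 CPM. On the list of 30 the controls lay a median of 1.77 apart on the log2 scale, and 24 members overlapped between control and mutants. Summed over the list the level was 1642 and 5470 CPM in the controls, 4691 and 5498 CPM in mutants 1 and 2, and 1286 and 1283 CPM in the p45-deficient libraries. Control replicate 1 thus lay near the p45-deficient libraries and control replicate 2 near the mutants. Against p45-deficient cells edgeR's test called 4 of the 30 higher in Tcf1-deficient cells and 0 lower, beside 5.05% and 5.36% over all genes. That count was 20 by DESeq2, 20 without control replicate 1 or 2, 0 without p45-deficient replicate 1 or 2, and 1 and 6 without mutants 1 and 2. Heat-shock and unfolded protein genes had median differences between −0.09 and 0.06 from the control mean in both mutants. The median difference of control replicate 1 from control replicate 2 was −0.588 for heat-shock genes and −0.167 for unfolded protein genes. Replication-dependent histone genes had 12 of 22 members above both controls, at low levels that summed to 16.5 and 42.0 CPM in the controls and 44.8 and 42.6 CPM in the mutants, so the list sum set control replicate 1 apart.

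Genes of cell division mostly overlapped with control. Of 44 mitosis genes 36 overlapped, 8 lay above and 0 below, and of 42 replication genes 32 overlapped, 8 lay above and 2 below. Cdk1, the mitotic kinase gene, stood at 67.4 and 65.4 CPM in the controls and 63.2 and 78.8 CPM in mutants 1 and 2, and Mki67 at 804 and 666 CPM against 542 and 830 CPM. The median difference from the control mean was −0.09 in mutant 1 and 0.30 in mutant 2 for mitosis genes, so the mutants lay on either side. Cenpa, the centromeric histone, lay above both controls, at 49.4 and 44.9 CPM against 64.0 and 63.6 CPM. Ccnd3 and Cdk6 were at 322 and 232 CPM against 263 and 240 CPM, and at 392 and 376 CPM against 227 and 339 CPM.

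Genes of cell death shared no direction, with 6 of 24 pro-apoptotic genes above and 4 below, and 6 of 18 anti-apoptotic genes above and 2 below. Bmf, a BH3-only gene, stood at 71.4 and 85.8 CPM in the controls and 38.3 and 49.4 CPM in the mutants, and DESeq2 called it lower. Fasl, the death ligand of cytotoxic cells, was at 0.532 and 0.458 CPM against 6.07 and 1.79 CPM and was called higher by DESeq2. Bcl2 was at 150 and 240 CPM in the controls and 262 and 248 CPM in the mutants. Of 26 p53 targets 4 lay above and 5 below, and Cdkn1a, at 54.1 and 63.0 CPM against 44.2 and 73.0 CPM, overlapped.

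The remaining lists are given mainly by their counts. Cytosolic ribosomal protein genes had 42 of 47 members that overlapped, with 3 above and 2 below under TMM but 1 and 12 under library totals. Of 38 nuclear respiratory chain genes 10 lay above and 4 below under TMM, and 4 and 5 under library totals, so neither list has a direction here. Above and below both controls lay 1 and 4 of 17 recombination genes, 5 and 3 of 16 cyclin D and CDK genes, 5 and 2 of 20 glycolysis genes, and 3 and 4 of 29 chromatin regulators. All 4 tested sex-linked genes overlapped. E protein and Id genes had 3 of 10 above and 1 below, with median differences from the control mean of 0.434 and 0.453 in mutants 1 and 2. Id3, an inhibitor of E proteins, stood at 37.2 and 28.1 CPM in the controls, 102 CPM in mutant 1 and 36.8 CPM in mutant 2. Of 16 dendritic cell and antigen-presentation genes, 7 were at least 2-fold below both controls in mutant 2, beside 2.30% over all genes. Among them was Cd74, the gene of the MHC class II invariant chain. It stood at 6.83 CPM in mutant 2, 67.5 CPM in mutant 1 and 48.9 and 17.4 CPM in the controls. Of 10 thymic stromal genes 3 lay above, and Pdgfrb, a growth factor receptor gene, stood at 45.4 and 52.8 CPM against 106 and 167 CPM, while Foxn1 was at 0 in both controls and in mutant 1. For B cell, myeloid and erythroid markers the counts above and below were 1 and 1 of 8, 2 and 3 of 10, and 2 and 0 of 6. What part such cells have in the levels was not tested.

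**Figure D4:**
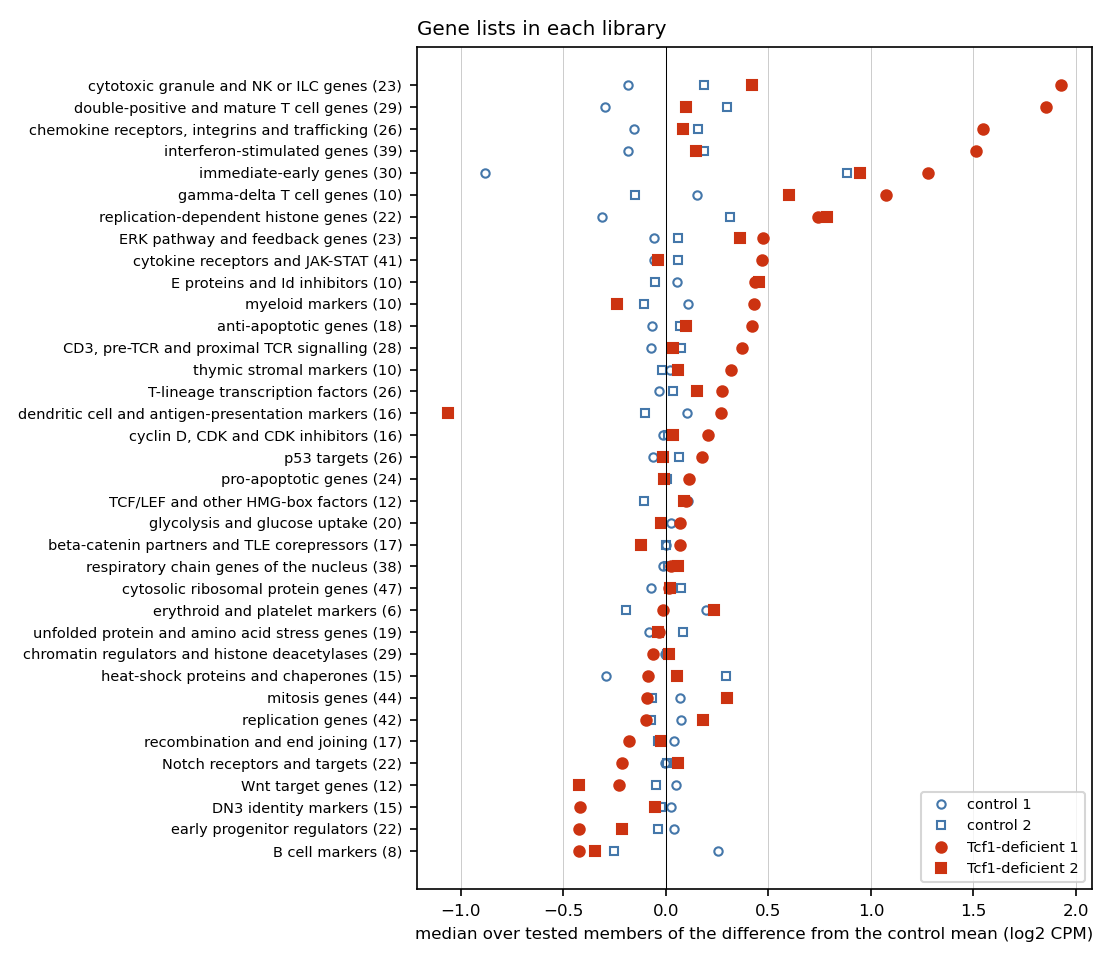
Median over the tested members of each gene list (number in brackets) of the difference from the control mean in log2 CPM, for each control (open blue) and each mutant (filled red); circles are replicate 1 and squares replicate 2. Mutant 1 stands at the right for effector, mature T cell, trafficking and interferon genes, with medians of 1.93, 1.86, 1.55 and 1.51, where mutant 2 lies at 0.42, 0.10, 0.08 and 0.15; the controls are far apart on immediate-early genes.

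Set against p45-deficient cells, the Tcf1-deficient libraries gave calls. The p45-deficient levels are no part of the contrast with control, but the Tcf1-deficient libraries enter both contrasts. edgeR's test found 1348 of 12939 genes (10.4%) different between Tcf1-deficient and p45-deficient cells, 654 higher (5.05%) and 694 lower (5.36%). That split was 698 and 543 with DESeq2's size factors, 689 and 529 with upper quartiles and 744 and 483 with library totals. The count was 664 and 650 without control replicates 1 and 2, 105 and 184 without p45-deficient replicates 1 and 2, 1365 without mutant 1 and 3437 without mutant 2. DESeq2 called 2551. Of 44 mitosis genes 36 were lower in Tcf1-deficient than in p45-deficient cells and 0 higher, and of 42 replication genes 16 were lower and 0 higher. The mitosis count was 18 and 17 without control replicates 1 and 2, 1 and 2 without p45-deficient replicates 1 and 2, and 28 and 42 without mutants 1 and 2, and the replication count 5 and 5, 1 and 1, and 9 and 30 in the same order. Cdk1 stood at 147 and 154 CPM in the p45-deficient libraries, above all 4 of the others.

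Kit was higher in Tcf1-deficient than in p45-deficient cells, with 38.6 and 54.4 CPM in mutants 1 and 2 against 5.55 and 6.65 CPM, a 7.64-fold difference (log2 fold change 2.93, SE 0.21; adjusted p = 0.00203, edgeR). Gzma was 3.08-fold lower, with 215 and 306 CPM against 806 and 799 CPM (log2 fold change −1.63, SE 0.18). Ptpn13 was 8.82-fold lower, with 20.5 and 19.0 CPM against 203 and 145 CPM, and Akr1c12 and Agfg1 were lower too (log2 fold changes −2.59, SE 0.29, and −1.55, SE 0.18). Tcf7, Nnt and Myzap were lower by log2 fold changes of −1.28, −1.21 and −1.84 (SE 0.11, 0.11 and 0.18). These 8 genes kept their call by edgeR's test in each of the 6 fits with a library left out. On Gzma, Ptpn13, Akr1c12, Agfg1 and Adam19 the mutants stood between the controls and the p45-deficient libraries, while on Kit they stood with or just below the controls. The genes with the largest gaps from control were picked on these same Tcf1-deficient libraries, so their calls here are not independent of that choice. Of the 12 genes with the largest gap above control, 2 were higher than in p45-deficient cells, 3 lower and 7 not called. Of the 12 below, 5 were higher, 1 lower and 6 not called, beside 5.05% higher and 5.36% lower over all genes. Hoxa7, Fndc1, Alpl and Rab11fip5 were among the 5, each under 1 CPM in p45-deficient cells. Of the 5, 3 were called without control replicate 1, 2 without control replicate 2, and 0 without p45-deficient replicate 1 or 2. Bpifc was not called without control replicate 1, control replicate 2 or p45-deficient replicate 2, and Adam19 lost its call without p45-deficient replicate 1 or 2.

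The largest rises and falls of this contrast were genes at or near 0 in one genotype. Afap1l1, an actin-binding adaptor gene, had 0 counts in both p45-deficient libraries, while the mutants held 7.61 and 6.03 CPM and the controls 9.81 and 10.5 CPM. Dusp15, Rnf180 and Nxpe5 followed the same pattern at lower levels, and En2 was the fifth. Gm266, a gene with no established role, was at most 0.0832 CPM in these 4 libraries and stood at 113 and 64.2 CPM without the long isoforms. Fabp4, a fatty acid carrier, was listed at 0 in both mutants and held 15.0 and 3.78 CPM in p45-deficient cells, and 2300002M23Rik, Timp3 and Tmc7 were likewise at 0 in both mutants. Of the 22 tested early precursor regulators 6 were higher in Tcf1-deficient than in p45-deficient cells and 0 lower, beside 5.05% and 5.36% over all genes. With 1 library left out this count was 4 for each control, 2 for each p45-deficient library and 7 for each mutant.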

How the data were processed

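RNA was sequenced from sorted DN3 thymocytes, 2 libraries per genotype. The authors deposited a table of raw counts, 1 whole number for each gene symbol and library. The submitters' processing notes name TopHat2 without a version, featureCounts 1.5.0-p3, DESeq2 3.4 and the build mm9. For annotation and strandedness the value was not given in the sources used here. Overlapping, antisense and near-identical genes may share reads. Counts were filtered (filterByExpr, 12939 genes kept), scaled by TMM and fitted with 1 mean per group to all 6 libraries by edgeR 4.0.16 (R 4.3.3; robust quasi-likelihood F test, two-sided, Benjamini-Hochberg at 0.05), leaving 3 residual degrees of freedom, with a common biological coefficient of variation of 0.215. The test was tested on simulated data. The contrast with p45-deficient libraries came from the same fit. Alternatives were other scalings and filters, DESeq2 1.42.0, the 4 libraries alone, a replicate block and each library left out. With 2 against 2 an exact permutation test cannot go below p = 0.333.

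The members, the 38 gene lists (855 symbols, 818 in the files, 739 tested) and the rules were chosen with earlier results of these data known. The transcripts of the mitochondrial genome had no symbol among those used here. Named genes are Tcf7, the 12 with the largest gap on either side of the controls (at least 5 CPM in the higher group; log2 CPM with a prior count of 2), up to 4 members per list with the smallest p, the 10 that differ most toward each mutant, and the 5 largest rises and falls against p45-deficient cells. Other list members are given as examples chosen after their values were seen. A few genes that these rules pick are not reported here.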

Additional observations from a re-analysis of the deposited data

How the results depend on the processing

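Between Tcf1-deficient and control cells edgeR's test called 0 genes in the main fit, 33 without a filter, 145 by DESeq2 and 0 to 894 when a library was left out, the highest without Tcf1-deficient replicate 2. List members called numbered 0, then 4 without a filter, 21 by DESeq2 and 0 to 129 with a library left out. Against p45-deficient cells the 1348 calls became 2551 by DESeq2 and 105 to 3437 with a library left out. Genes whose libraries do not overlap numbered 4450, and 7498 to 10577 with a library left out; with nearest libraries at least 2-fold apart there were 155, then 307 without a filter, 69 with at least 2 CPM in at least 2 libraries and 406 to 1494 with a library left out. The SD between the Tcf1-deficient libraries was 0.787, then 0.907 without a filter and 0.605 with that stricter one. In each such count fewer libraries or another set of genes entered; for the calls the cause was not tested. Other scalings, dispersions that are not robust and the 4 libraries alone left 0 calls against control.

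Whether replicate numbers pair the libraries is not stated in the labels. Deviations of libraries with the same number correlated at −0.05 between control and Tcf1-deficient cells. That value cannot show whether libraries with the same number were prepared together. With the replicate number as a block there were 0 calls against control and 920 against p45-deficient cells. Of 184 genes named against control, 29 changed sign in an alternative, all of them uncalled, and 138 of their values passed the threshold in an alternative; of the 10 named against p45-deficient cells, 25 values no longer passed and 0 changed sign. Leaving out a library leaves its group with 1, which is then assumed to vary like the others. Depth was not varied.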
